A study of Homo sapiens with 12 samples.

Results

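Cytosolic ribosomal proteins are the protein parts of the ribosomes that translate nuclear-encoded mRNA. The large subunit forms the peptide bond and carries the exit tunnel, and the small subunit reads the mRNA. Their mRNAs are among the most abundant of growing cells and commonly begin with a C followed by a run of C and T letters, the terminal oligopyrimidine (TOP) tract, through which the kinase complex mTORC1 controls their translation. In blood, loss of 1 gene copy of RPS19, RPS14 and several other members is known to impair red cell production, through p53 among other routes.

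The genes were chosen by symbol alone: RPL or RPS followed by a number and at most an A or X, together with RPLP0, RPLP1, RPLP2 and RPSA. This gave 77 of the 55765 genes in the table, 46 of the large and 31 of the small subunit, and pseudogenes were left out. RNA was sequenced from OCI-AML2 cells, an established human line of acute myeloid leukaemia, grown as single-cell clones in which doxycycline switches on a construct of MEF2C, a transcription factor of blood cells. The 4 groups of 3 libraries were S222A induced, S222A uninduced, WT induced and WT uninduced, where S222A replaces a serine of MEF2C by alanine, induced cells had 600 ng doxycycline in 3 ml for 48 h and uninduced cells had vehicle. The labels do not say how many clones stand behind each construct, treated cells without a construct were not analysed here, and no label says that replicates are separate cultures, so p-values measure a spread that may be technical.

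The libraries held 875710 to 13134791 counts, a 15-fold range. The deepest library of each group differed from the other 8, with mitochondrially encoded RNA at 5.027 to 7.004% of counts against 6.856 to 9.275% in the others. MEF2C RNA stood at 914.4, 950.6 and 781.9 CPM (counts scaled to library size) in S222A induced cells, against 601.9, 696.4 and 797.1 CPM in S222A uninduced cells, and its change was not called (log2 0.34 ± 0.16 SE, edgeR adjusted p = 0.284). It stood at 670.6, 839.4 and 807.1 CPM in WT induced cells, against 742.7, 641.7 and 812.1 CPM in WT uninduced cells (log2 0.08 ± 0.16 SE, adjusted p = 1). Of the myeloid markers CD33, SPI1 and CSF3R were at 27.3 to 75.8 CPM in every library, MPO at 0.689 to 19.2, LYZ at 1.98 to 22.9, CSF1R at 2.03 to 8.16 and ITGAM at 0 to 3.44 CPM, and CEBPA had no count. The defining T cell, B cell and erythroid markers were at 0 to 3.27 CPM, and of the epithelial markers CDH1 was at 12.3 to 37 CPM and the others at or near 0.

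The start sites of the members that the results below turn on are shown because the TOP tract is the feature the family shares. Each window holds 15 bases before a start listed by RefSeq (build GRCh38.p14) and 15 bases from it. It reads 5′ to 3′ on the gene's strand, with the tract in capitals. Where more than 1 start is listed, the one with the longest tract was taken. Among the members shown this concerns RPS27A, with 3 listed starts. The submitters' processing notes name hg19 for the counts.
RPS27: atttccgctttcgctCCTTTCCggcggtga
RPL3: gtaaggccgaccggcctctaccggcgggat
RPLP0: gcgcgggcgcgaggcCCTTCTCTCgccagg
RPL26: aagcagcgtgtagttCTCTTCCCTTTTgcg
RPL39: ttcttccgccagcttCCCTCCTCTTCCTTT
RPS27A: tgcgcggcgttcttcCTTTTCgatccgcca
RPS29: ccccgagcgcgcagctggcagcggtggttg
RPS25: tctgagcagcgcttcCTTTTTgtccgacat

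They lie at chr1:153990747-153990776 (RPS27, plus strand), chr22:39319609-39319638 (RPL3, minus), chr12:120201097-120201126 (RPLP0, minus), chr17:8383179-8383208 (RPL26, minus), chrX:119791616-119791645 (RPL39, minus), chr2:55232673-55232702 (RPS27A, plus), chr14:49598696-49598725 (RPS29, minus) and chr11:119018329-119018358 (RPS25, minus). The letters searched were a C at the listed start followed by at least 4 letters that are each C or T, on the gene's strand only. Of the 62 members in the promoter table, 46 had it at a listed start (74.2%), against 1404 of all 27305 symbols (5.14%). Counting 1 start per symbol, the shares were 67.7% and 4.04%. The tract of the members was 5 to 19 letters long, with a median of 8, and it ran past the window shown in RPL39. RPL3 and RPS29 had no match at the listed start, which says only that these letters are not at that base. RPS2, which is described below, was among the 15 members without an entry.

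Together the 77 genes took 11.96 to 15.93% of all counts. Their share was 13.35, 13.34 and 14.95% in S222A induced cells, against 13.77, 12.06 and 12.48% in S222A uninduced cells. It was 15.93, 12.1 and 12.81% in WT induced cells, against 13.2, 15.2 and 11.96% in WT uninduced cells. Both pairs of groups overlapped, and in each of the 4 groups the deepest library had the highest share. The means were 13.9 ± 0.93% in S222A induced, 12.8 ± 0.89% in S222A uninduced, 13.6 ± 2.04% in WT induced and 13.5 ± 1.64% in WT uninduced cells (SD, n = 3 each). Large subunit genes took 1.079 to 1.277 times the counts of small subunit genes. These are shares of the RNA of each library, so a change of all ribosomal protein mRNA per cell and a change of other RNA cannot be told apart, nor can fewer expressing cells from less RNA per cell.

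**Figure D1:**
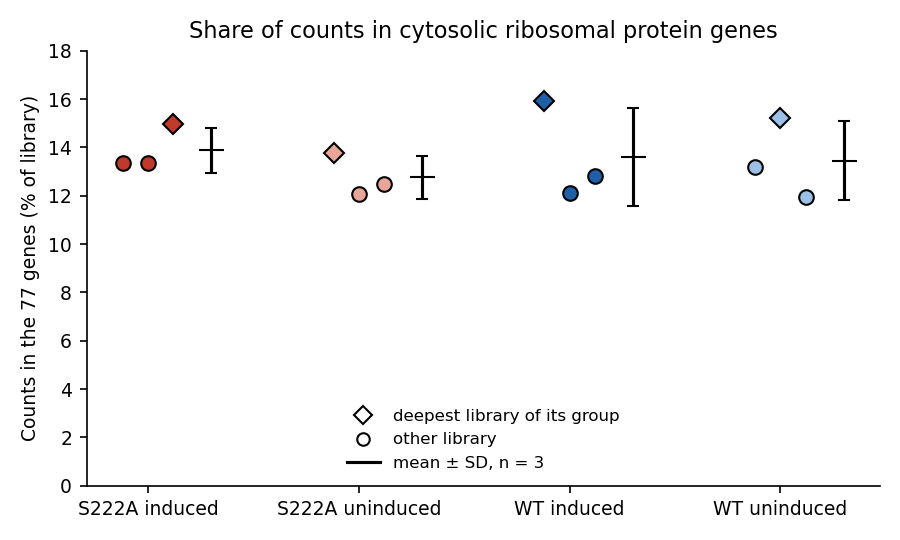
Percent of each library's counts in the 77 genes (y axis) for the 4 groups (x axis), with diamonds for the deepest library of each group, circles for the other libraries and bars for the mean ± SD (n = 3). The groups overlap, and each diamond is the highest point of its group, at 13.77 to 15.93%.

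The members spanned a wide range of levels. Per kilobase of coding sequence the highest were RPS29, a zinc-binding protein of the small subunit head, at 37770 CPM, RPL27A at 27070 CPM, RPL37A at 22650 CPM and RPS24 at 14170 CPM, as means over the 12 libraries. Counts are per gene, so a short coding part raises this measure. By CPM without that division RPL27A (12020) and RPS3 (7556) stood above RPS29 (6345), which ranged from 1333 to 11000 CPM between libraries. The lowest were RPL21 at 21.3 CPM and RPS26 at 17.4 CPM among the members tested, with RPL17 at 2.38 CPM. RPL17 had 0 to 18 counts per library and was among the 2 members that did not pass the filter on low counts. Reads of near-identical copies and of overlapping genes can be lost or split in counting, so the levels of members with many copies are uncertain. The table held 818 pseudogene rows, 56 of them of RPL21, 34 of RPS3A, 24 of RPL17 and 20 of RPS26. Many rows did not always go with a low level. RPL5 had 35 rows and stood at 2253 CPM per kilobase, RPL7A had 30 and stood at 1412. RPL31 had 28 and stood at 4552, and RPL23A had 33 and stood at 432.5 CPM. Across the 77 genes the level per kilobase and the number of pseudogene rows had a Spearman rho of -0.41, a description over genes of the same libraries. The readthrough rows RPL17-C18orf32, RPL36A-HNRNPH2 and RPS10-NUDT3 were at 0. Pseudogene rows took 0.193 to 0.278% of counts.

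**Figure D2:**
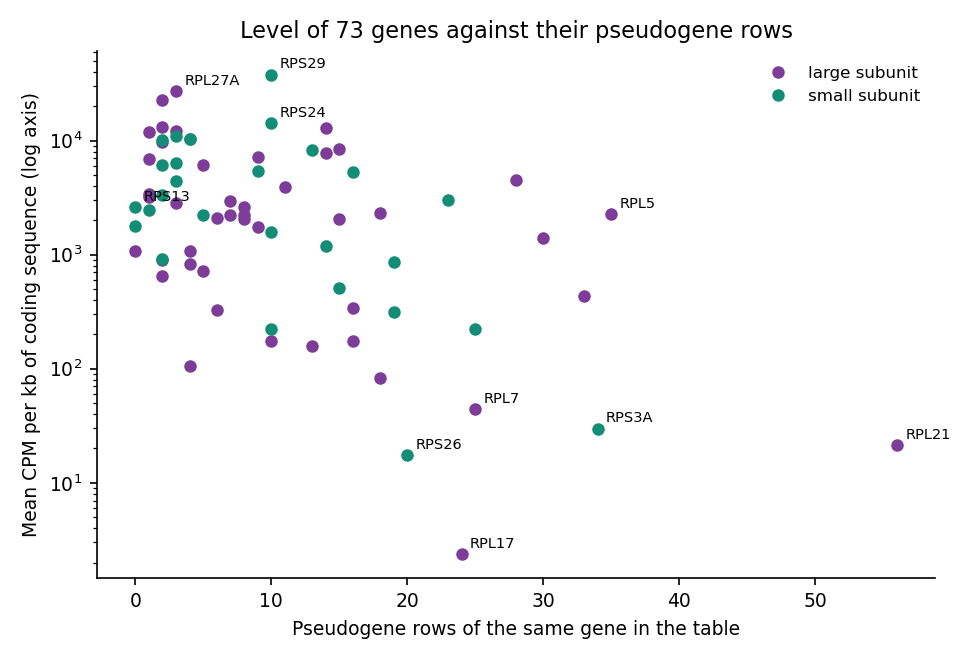
Mean CPM per kilobase of coding sequence over 12 libraries (y axis, log scale) against the number of pseudogene rows of the same gene in the table (x axis), 1 point for each of 73 genes. RPS29 stands highest at 37770 CPM, while RPL21, with 56 pseudogene rows, stands at 21.3 CPM and RPL17, with 24, at 2.38 CPM. RPL5, with 35, stands at 2253 CPM.

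On doxycycline treatment of the S222A line no ribosomal protein gene was called by edgeR's quasi-likelihood test at an adjusted p under 0.05. The comparison is of doxycycline with vehicle within the line, so the drug and the construct cannot be told apart. None of the 75 members tested was called, where 4.45% of all 11474 genes tested were. At an unadjusted p under 0.05 stood 1 member, RPS27, against 19.1% of all genes. DESeq2 and limma-voom called 0 members as well, against 7.07% and 6.14% of all genes. The median log2 fold change was 0.0992 over the 75 members (a 1.07-fold level) and 0.00905 over all genes, with 54 members above and 21 below 0. With 1 library left out it was 0.047 (without S222A induced replicate 3) to 0.219 (without S222A uninduced replicate 1). Over all libraries it was 0.0971 in 45 large subunit and 0.1 in 30 small subunit members. In 34 of the 75 members the 95% interval of the fold lay within 1.5-fold either way, against 14.6% of all genes, and in 65 within 2-fold. The median SE was 0.21 over the members and 0.274 over all genes.

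RPS27, a zinc finger protein of the small subunit, had the largest log2 fold change. It stood at 350.6, 422.5 and 257.4 CPM in S222A induced cells, against 219.3, 255.4 and 156.8 CPM in S222A uninduced cells. The groups did not overlap, by a margin of 257.4 against 255.4 CPM (1.62-fold, 95% interval 1.1 to 2.4; log2 0.70 ± 0.26 SE, adjusted p = 0.16). It was called with a term for the deepest library of each group (log2 0.64, adjusted p = 0.0345), without those libraries (0.89, 0.044) and without the low-count filter (0.72, 0.0347). These alternatives called 17.9%, 5.03% and 1.81% of all genes, and 2, 1 and 1 members.

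RPL3, which lines the peptidyl transferase centre of the large subunit, was the other member called with the term. It stood at 230.4, 285.8 and 174.6 CPM in S222A induced cells, against 147.8, 159.5 and 198.2 CPM in S222A uninduced cells, and the groups overlapped (1.37-fold; log2 0.46 ± 0.22 SE, adjusted p = 0.286; with the term log2 0.44, adjusted p = 0.0259). RPL31 stood at 1594, 1887 and 1728 CPM in S222A induced cells, against 1568, 1433 and 1270 CPM in S222A uninduced cells. Its groups did not overlap (1.22-fold; log2 0.29 ± 0.14 SE, adjusted p = 0.291). In all, 6 members stood higher without overlap, RPL10A, RPL11, RPL30, RPL31, RPLP1 and RPS27, and 0 lower, against 14.4% and 13% of all genes.

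At the far ends of the order, RPS18 (log2 0.57 ± 0.51 SE) followed RPS27, and RPS3A (-0.46 ± 0.36), RPS26 (-0.32 ± 0.45) and RPL36A (-0.24 ± 0.21) were lowest. None of these 4 was called, with adjusted p between 0.563 and 0.78. RPS18 had its lowest value in the library S222A uninduced replicate 3, the shallowest of its group, and its log2 fold change was 0.15 without it. It stood at 1018, 1232 and 1420 CPM in S222A induced cells, against 1363, 833.5 and 271.1 CPM in S222A uninduced cells. The same library stood apart in RPS29, with 5531, 5524 and 8584 CPM in S222A induced cells, against 8124, 5357 and 1333 CPM in S222A uninduced cells. RPS14 was highest in that library, with 6500, 5903 and 4011 CPM in S222A induced cells, against 3723, 4656 and 8030 CPM in S222A uninduced cells.

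**Figure D3:**
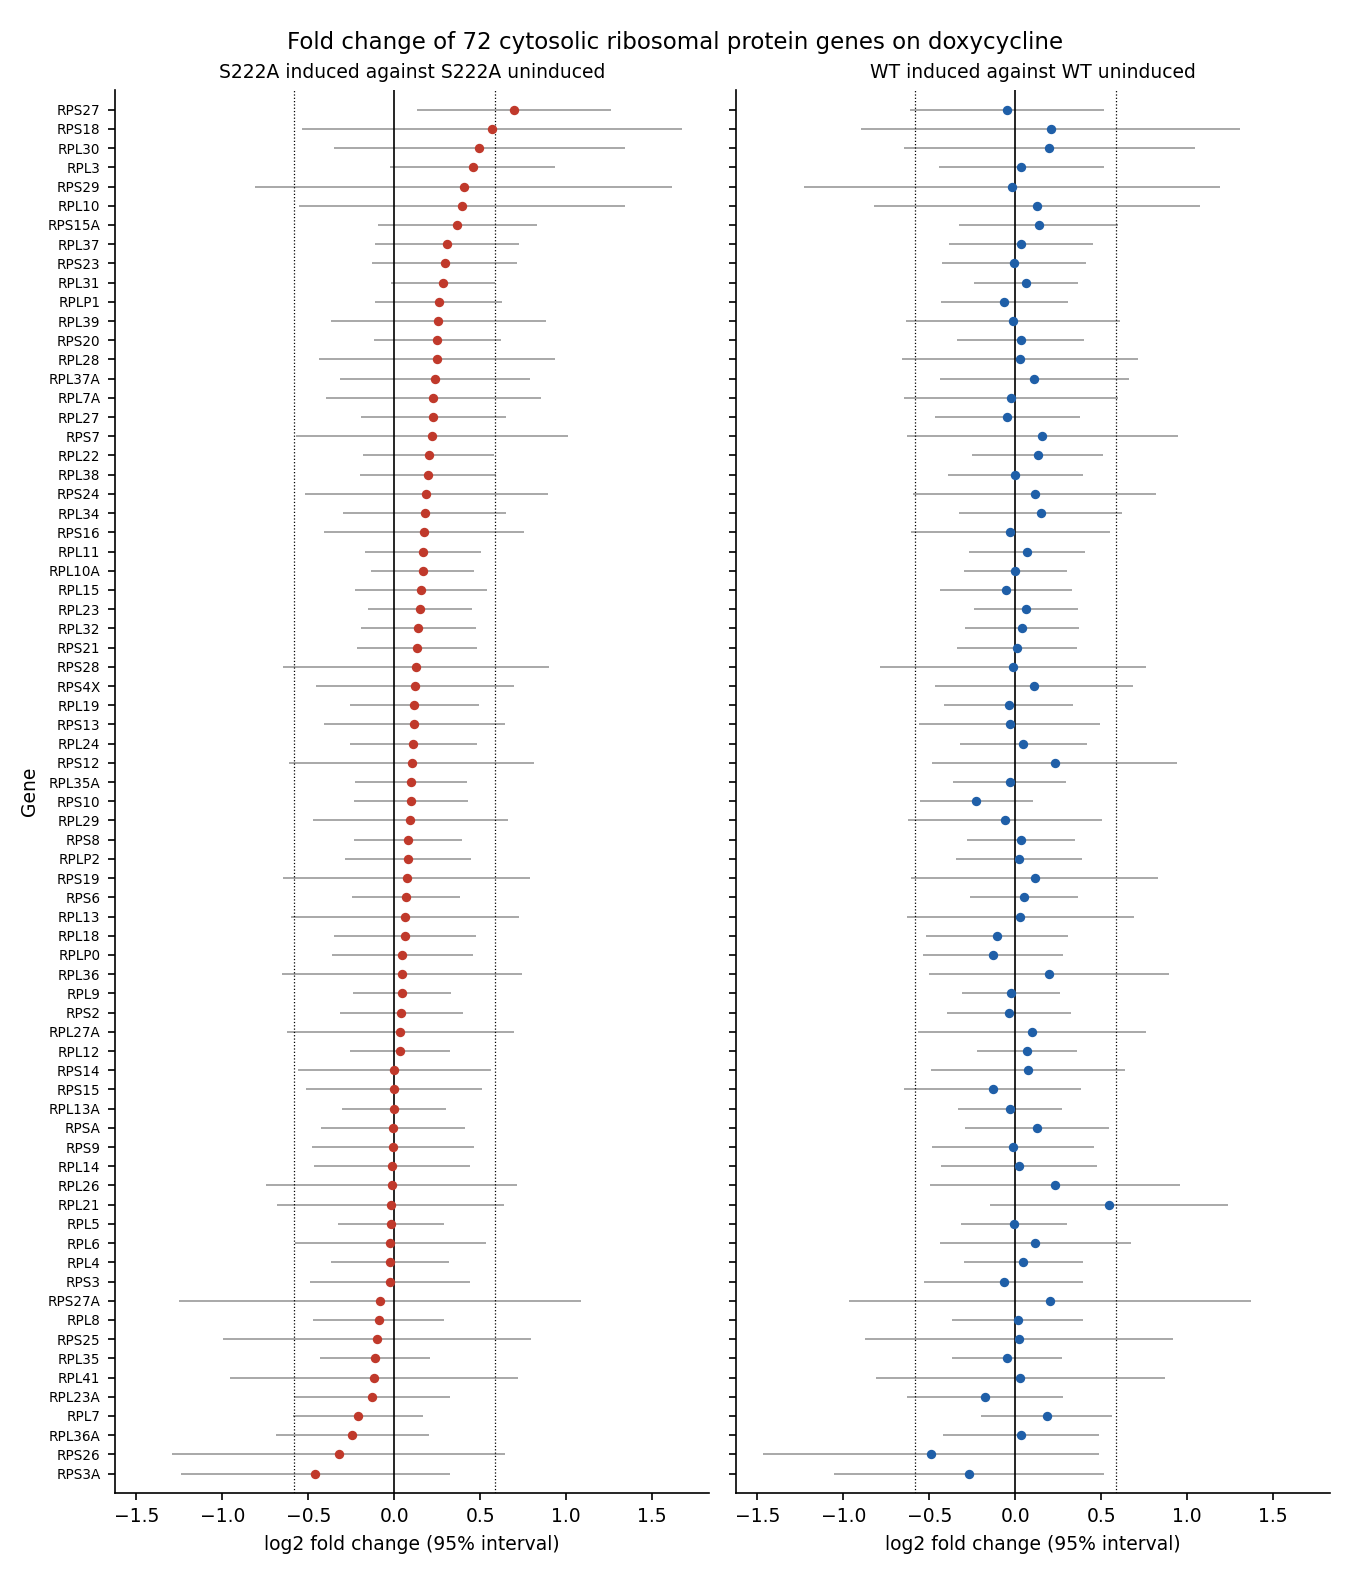
Log2 fold change (x axis) with its 95% interval for 72 of the genes tested (y axis), ordered by the S222A line, for S222A induced against uninduced cells (left) and WT induced against uninduced cells (right), with dotted lines at 1.5-fold. The interval of RPS27 in the S222A line excludes 0, no other interval shown does, and no gene was called in either line.

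Members with known roles in leukaemia or p53 signalling were not called either, and are given with the 95% interval of the fold. RPL5 and RPL11 bind MDM2 when they are free of ribosomes. RPL5 stood at 1838, 1968 and 1778 CPM in S222A induced cells, against 1800, 1747 and 2115 CPM in S222A uninduced cells (0.986-fold, 95% interval 0.796 to 1.22). RPL11 stood at 1827, 2003 and 1999 CPM in S222A induced cells, against 1824, 1590 and 1777 CPM in S222A uninduced cells (1.12-fold, 0.889 to 1.42). RPS14, which is haploinsufficient in a myelodysplastic syndrome, had a fold of 1 (0.677 to 1.48). RPS19, mutated in Diamond-Blackfan anaemia, stood at 1.05-fold (0.64 to 1.73). RPL22, which is deleted in some leukaemias, stood at 388.1, 401.7 and 283 CPM in S222A induced cells, against 270.3, 285.2 and 380 CPM in S222A uninduced cells (1.15-fold, 0.884 to 1.5). RPS6, the member phosphorylated by the S6 kinases, stood at 1.05-fold (0.843 to 1.3) and RPSA at 0.996-fold (0.745 to 1.33). RPL10, mutated in some T cell leukaemias, stood at 1.31-fold with a wide interval (0.682 to 2.54). RPL13A stood at 0.999-fold (0.81 to 1.23), RPL38, which in mice affects translation of Hox mRNAs, at 1.15-fold (0.873 to 1.51), and RPLP0 of the ribosomal stalk at 1.03-fold (0.779 to 1.37). RPS27A, made as a fusion with ubiquitin, stood at 0.945-fold and had the widest interval of these genes (0.42 to 2.13).

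In the WT line none of the 75 members was called on doxycycline by edgeR, DESeq2 or limma-voom, where 0.00872%, 0.0349% and 0% of all genes were called. No member stood at an unadjusted p under 0.05, against 1.71% of all genes. The median log2 fold change was 0.0284 over the members and 0.00576 over all genes, with 44 members above and 31 below 0. With 1 library left out it was -0.1 to 0.089. The lowest value left out WT induced replicate 1 and the highest WT uninduced replicate 2, and leaving out WT uninduced replicate 1 gave -0.0014. The interval lay within 1.5-fold in 41 of the 75 members, against 27.1% of all genes. RPL5 stood at 1989, 2032 and 2385 CPM in WT induced cells, against 2100, 2067 and 2271 CPM in WT uninduced cells (95% interval of the fold 0.803 to 1.23). RPS6 stood at 4096, 4128 and 4278 CPM in WT induced cells, against 4123, 3529 and 4408 CPM in WT uninduced cells (0.834 to 1.29). Both overlapped between the groups. RPL21 had the largest log2 fold change, 0.55 ± 0.32 SE (adjusted p = 1), at a low level. It stood at 9.01, 13.38 and 13.33 CPM in WT induced cells, against 6.02, 7.49 and 10.16 CPM in WT uninduced cells, and the groups overlapped. RPS26 was lowest, at -0.49 ± 0.45 SE. RPS10, a protein of the small subunit, had log2 -0.23 ± 0.15 SE. In 1 member the WT groups did not overlap, on the lower side, against 2.99% of all genes. On the higher side there were 0 such members, against 2.81%.

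The difference of the 2 induction effects, S222A minus WT, compares the responses of the 2 lines to doxycycline, in which the construct and the clone cannot be told apart. No member was called by edgeR, DESeq2 or limma-voom, where 0.0784%, 0.314% and 0.0872% of all genes were called, and 0 members stood at an unadjusted p under 0.05, against 6.69% of all genes. RPS27 had the largest difference (log2 0.75 ± 0.37 SE, adjusted p = 0.774), followed in order of p by RPL7 (-0.39 ± 0.25). In 13 members the interval of the difference lay within 1.5-fold, against 3.64% of all genes, and in 51 within 2-fold. In the remaining members the interval reached past 2-fold.

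Between the lines, most members stood lower in S222A than in WT cells, without a call. In uninduced cells the median log2 difference was -0.192 over the 75 members, a 0.875-fold level, and 0.00158 over all genes, with 56 members below and 19 above 0. None was called by edgeR, DESeq2 or limma-voom, where 0.392%, 0.723% and 0.357% of all genes were called. At an unadjusted p under 0.05 stood 11 members, all 11 lower in S222A, against 7.48% of all genes in either direction, 3.3% lower and 4.17% higher. In 13 members every S222A uninduced library was lower than every WT uninduced library, against 6.1% of all genes, and in 0 every one was higher, against 6.24%. In induced cells the median was -0.0894, with 46 members below and 29 above 0. It was 0.0409 without WT induced replicate 1 and -0.169 to -0.0171 without any other 1 library, so its sign rested on that library. In uninduced cells it was -0.27 to -0.105 with 1 library left out. The interval lay within 1.5-fold in 27 members between the induced and 20 between the uninduced lines, against 14.4% and 21.3% of all genes. Between the induced lines 0 members were called, against 6.34% of all genes. At an unadjusted p under 0.05 were 3 lower and 1 higher members, against 9.95% and 11.2% of all genes (21.2% in either direction). DESeq2 called RPS2 alone (adjusted p = 0.0349) and limma-voom none, against 8.82% and 8.64% of all genes. Libraries did not overlap in 10 lower and 2 higher members, against 12.9% and 15.2% of all genes. The lower count was near that of all genes, and the higher one was below it. Of the lower members without overlap, 8 were shared by both pairs of groups, 80% of the induced and 61.5% of the uninduced list: RPL12, RPL13A, RPL19, RPL27, RPL35, RPL9, RPLP0 and RPS2. Of all 11474 genes 306 (2.67%) were lower without overlap in both pairs, from lists of 1477 between the induced and 700 between the uninduced lines. The 80% and 61.5% of the members' lists are therefore to be set against 306 of 1477 and 306 of 700. The 8 of 75 members are to be set against 2.67%. The construct and the clone cannot be told apart in these comparisons.

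RPS2, at the mRNA entry side of the small subunit, had the smallest p between the lines in both pairs. It stood at 202.9, 220.4 and 261.1 CPM in S222A induced cells, against 312.8, 341.1 and 327.1 CPM in WT induced cells (0.699-fold, 95% interval 0.545 to 0.896; log2 -0.52 ± 0.17 SE, adjusted p = 0.0862). In uninduced cells it stood at 242.8, 217.5 and 203.6 CPM in the S222A line, against 292.1, 301.3 and 411.9 CPM in the WT line (0.662-fold, 0.515 to 0.85; log2 -0.60 ± 0.17 SE, adjusted p = 0.266). All 6 S222A libraries were lower than all 6 WT libraries. Over the alternatives its log2 difference was -0.66 to -0.44 between the induced and -0.74 to -0.45 between the uninduced lines.

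RPLP0, the anchor of the ribosomal stalk and a common reference gene for PCR, had a similar pattern. It stood at 540.4, 593.7 and 542 CPM in S222A induced cells, against 621.3, 958.6 and 737.6 CPM in WT induced cells (0.724-fold, 0.546 to 0.962; log2 -0.47 ± 0.19 SE, adjusted p = 0.177). In uninduced cells it stood at 517.1, 539.4 and 565.2 CPM in the S222A line, against 822, 669.3 and 1037 CPM in the WT line (0.641-fold, 0.483 to 0.852; log2 -0.64 ± 0.19 SE, adjusted p = 0.322). The 6 S222A libraries lay between 517.1 and 593.7 CPM, below all WT libraries. With the term for the deepest libraries RPS2 and RPLP0 were called in both pairs, with adjusted p of 0.0103 and 0.0193 between the induced and 0.0289 and 0.0134 between the uninduced lines, where 21.6% and 1.9% of all genes were called. Without the deepest libraries both were called between the induced lines (0.0266 and 0.0432), where 4 members and 8.03% of all genes were called, and 0 members between the uninduced lines.

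That term also called RPL14 (log2 -0.40), RPL26 (-0.60) and RPL39 (0.61) between the induced lines. RPL26, a large subunit protein that also binds the mRNA of p53, stood at 586.5, 883.7 and 1436 CPM in S222A induced cells, against 1703, 1260 and 1251 CPM in WT induced cells, and the groups overlapped. RPL39, a small protein of the exit tunnel, stood at 2949, 2922 and 1729 CPM in S222A induced cells, against 1274, 1913 and 1724 CPM in WT induced cells, and overlapped too. In RPL26 the S222A value nearest to WT, and in RPL39 as well, was that of the deepest library. Without the deepest libraries RPL26 (log2 -0.77, adjusted p = 0.0123) and RPL39 (0.69, 0.0395) were the other members called between the induced lines. With all 12 libraries and no term neither was called at the low-count filter used here (adjusted p = 0.401 for RPL26 and 0.232 for RPL39). RPL39 was the 1 member called between the induced lines without the low-count filter (adjusted p = 0.0382), where 2.37% of all genes were called.

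**Figure D4:**
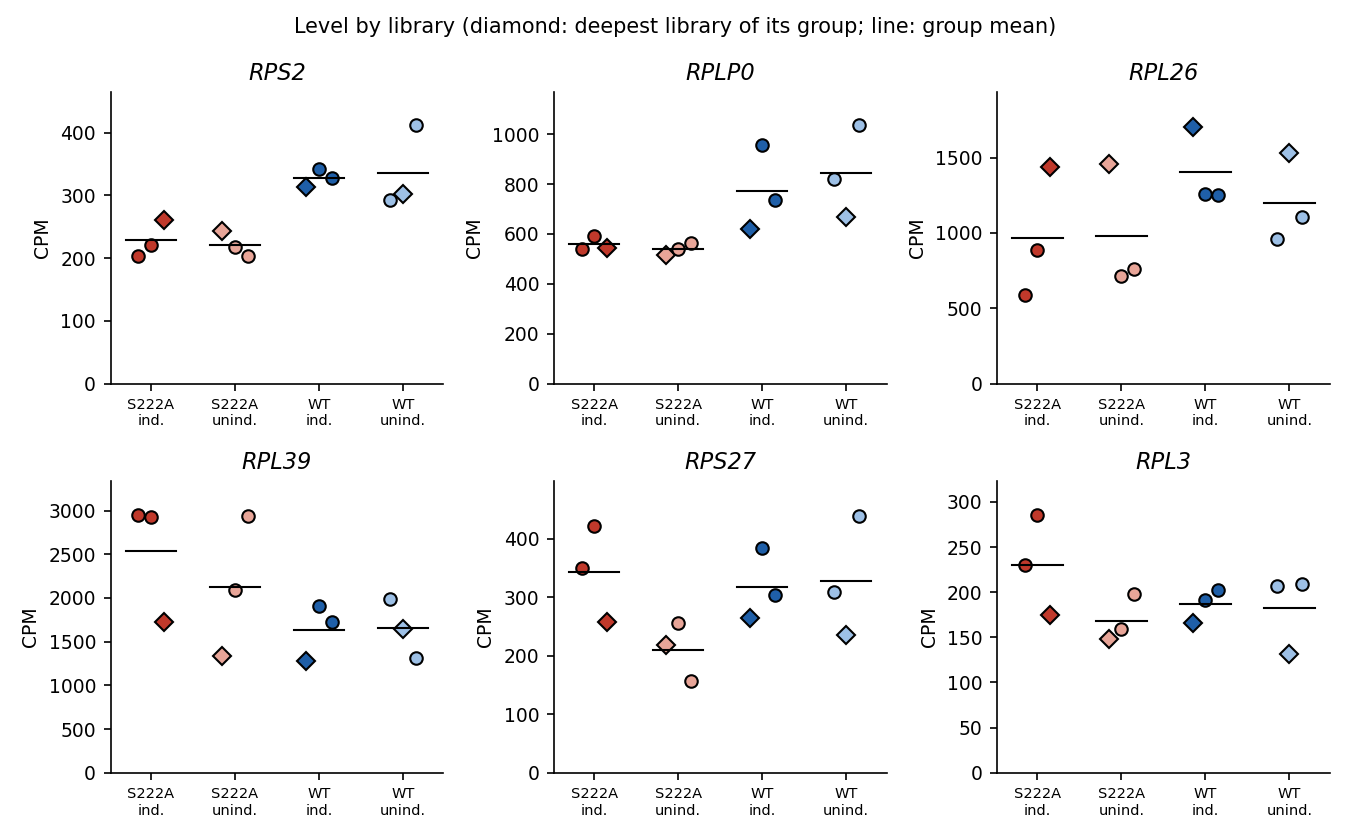
CPM per library (y axis) of 6 members in the 4 groups (x axis), with diamonds for the deepest library of each group and lines for group means. In RPS2 and RPLP0 all S222A libraries lie below all WT libraries, while in RPL26 and RPL39 the deepest S222A library lies near the WT libraries.

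The members differed between libraries of the same group along with sequencing depth. In 32 of 75 members the deepest library was above both other libraries in all 4 groups, against 17.4% of all genes, and in 9 it was below both in all 4, against 15.4%. RPS27A stood at 6790, 6747, 9012 and 7568 CPM in the deepest libraries of the S222A induced, S222A uninduced, WT induced and WT uninduced groups, while the other 8 libraries lay at 1976 to 5156 CPM. Its mean log2 ratio of the deepest library to the mean of the other 2 was 1.17, and it was 1.04 for RPS29, 1.01 for RPL10 and 0.95 for RPS18. RPS19 stood at 3742, 3610, 4432 and 3548 CPM in the deepest libraries of the groups in the same order, with the other 8 at 2066 to 2409 CPM. RPS25 ran the other way, at 361.1, 420.5, 374.8 and 397.4 CPM in the deepest libraries, with the other 8 at 647.5 to 949.6 CPM (mean log2 ratio -1.07). RPL41 (-0.85), RPS26 (-0.81), RPS3A (-0.81) and RPL6 (-0.51) were lower there as well. In 23 members the mean log2 ratio was over 0.5 and in 6 under -0.5. The fitted log2 fold change is a different measure, so its counts cannot be set directly against these. On doxycycline it was beyond 0.5 in size in 3 members in the S222A and 1 in the WT line. Between the lines it was so in 3 members of the induced and 6 of the uninduced pair. The shares of all genes beyond 0.5 are not given here. Across the 75 members the ratio had a Spearman rho of 0.18 with the GC content and -0.02 with the length of 1 annotated transcript per gene. With the coding length it was -0.13. These values describe genes of the same libraries. In RPL37 the transcript taken had 7686 bases for 291 coding bases. Which transcripts the cells made was not tested, so the GC content and transcript length may not be those of the mRNA counted. Total counts and the mitochondrial share moved with this pattern, and their part in it was not tested.

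**Figure D5:**
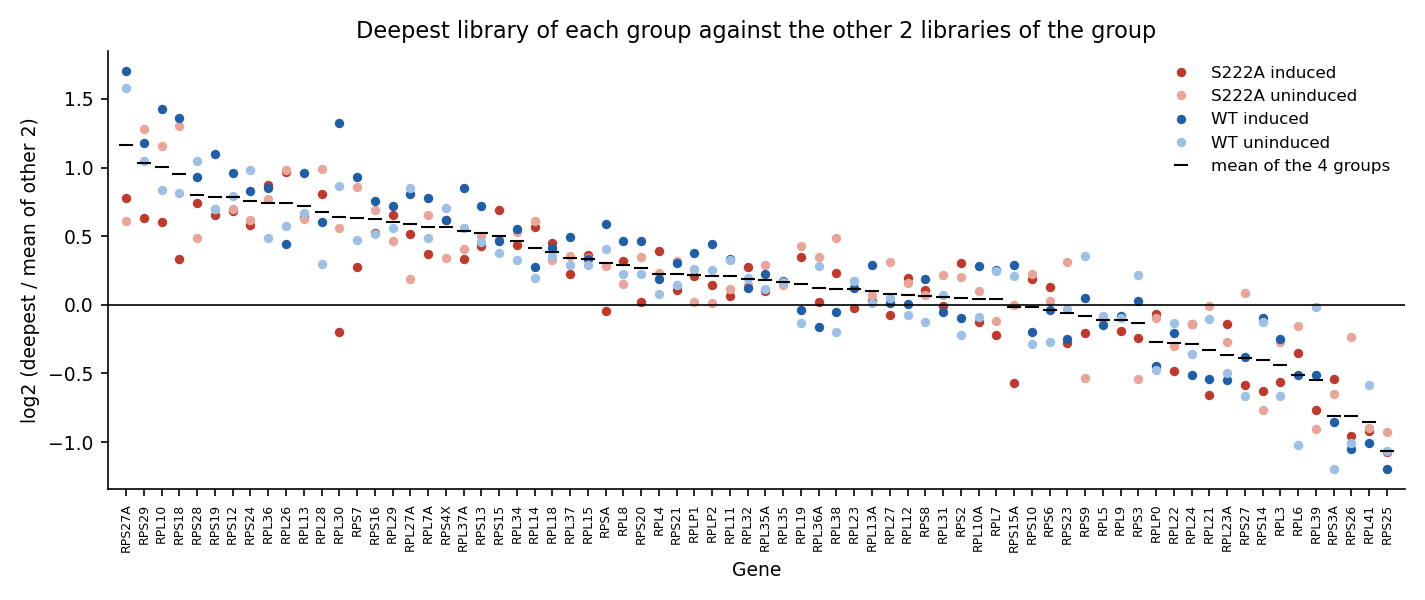
Log2 ratio of the deepest library to the mean of the other 2 libraries of its group (y axis), for 72 of the genes tested in order of the mean ratio (x axis), with 1 coloured point per group and a black dash for the mean. RPS27A is highest at 1.17 and RPS25 lowest at -1.07, with all 4 groups on the same side of 0 in both.

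Other genes of ribosome production and use were called in few cases. On doxycycline in the S222A line 0 of 20 elongation factors and other TOP mRNAs, 0 of 9 ribosomal protein paralogues, ubiquitin fusion genes and RACK1, 0 of 19 genes of mTORC1 and TOP control, 0 of 13 chaperones and importers of ribosomal proteins, 0 of 15 ribosomal transcription and RNA polymerase I factors, 0 of 6 genes of MDM2 signalling and 0 of 11 ribosome rescue factors were called. Their median log2 fold changes were 0.0844, 0.0419, -0.174, -0.29, -0.185, 0.0041 and -0.223, beside 0.00905 over all genes. ZNF598, the ligase that marks stalled ribosomes, came nearest to a call (log2 -0.98 ± 0.26 SE, adjusted p = 0.0504). GRWD1, the chaperone of RPL3, had log2 -0.56 ± 0.17 SE (adjusted p = 0.0791), POLR1A, the largest RNA polymerase I subunit, -0.50 ± 0.17 SE (adjusted p = 0.105) and the TOP mRNA TPT1 0.47 ± 0.17 SE (adjusted p = 0.138). Among 71 mitochondrial ribosomal proteins tested 0 were higher and 4 lower (5.63%, close to the 4.45% of all genes called), with a median of -0.36: MRPS26 (log2 -0.83), MRPS12 (-0.78), MRPS5 (-0.53) and MRPL44 (-0.68) fell. MRPS26, which had the smallest p of these, averaged 62.4 ± 5.31 CPM in S222A induced cells and 112 ± 20.9 CPM in S222A uninduced cells (SD, n = 3 each; edgeR adjusted p = 0.0235). Its call held in 7 of 12 fits that each left out 1 library, and those of MRPS12, MRPS5 and MRPL44 in 5, 3 and 2. Of 82 pseudogene rows tested 0 were called, with a median of 0.136. None of these lists had a call on WT doxycycline treatment.

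Between the induced lines, called genes of those lists were lower in S222A cells with 1 exception. They were 2 of 13 chaperones and importers, 2 of 15 transcription and polymerase factors, 1 of 6 genes of MDM2 signalling, 1 of 11 rescue factors and 8 of 71 mitochondrial ribosomal proteins (11.3%), against 6.34% of all genes. In the remaining lists 0 of 20 elongation factors and other TOP mRNAs and 0 of 19 genes of mTORC1 and TOP control were called. Of 9 paralogues, ubiquitin fusion genes and RACK1, and of 82 pseudogene rows, 0 were called. The importer IPO5 averaged 154 ± 18 CPM in S222A induced cells and 232 ± 27.3 CPM in WT induced cells (SD, n = 3 each; edgeR adjusted p = 0.0287). LTV1, a factor that leaves the small subunit late in assembly, averaged 67 ± 4.68 CPM in S222A induced cells and 103 ± 11.1 CPM in WT induced cells (adjusted p = 0.035). The polymerase subunit POLR1C (log2 -0.85, adjusted p = 0.019), the ribosome recycling factor ABCE1 (-0.73, 0.0294), 8 mitochondrial ribosomal proteins and MYC, which drives ribosome production, were lower too. MYC averaged 89.8 ± 8.13 CPM in S222A induced cells and 248 ± 52.4 CPM in WT induced cells (adjusted p = 0.0389). With 1 library left out the calls held in 9 of 12 fits for IPO5, 6 for LTV1, 8 for POLR1C, 7 for ABCE1, 12 for 1 of the 8 mitochondrial ribosomal proteins (MRPS15), 2 to 7 for the others and 3 for MYC, whose log2 difference was -1.65 to -1.38 over all alternatives. CDKN1A, the p53 target that inhibits cyclin-dependent kinases, was the exception, at 94.3 ± 4.58 CPM in S222A induced cells and 40.3 ± 8.24 CPM in WT induced cells (adjusted p = 0.00478). It was higher before induction too, at 90.7 ± 9.63 CPM in S222A uninduced cells and 31.3 ± 8.46 CPM in WT uninduced cells (adjusted p = 0.00502). The CDKN1A calls held in all 22 alternatives between the induced and in 21 between the uninduced lines, the exception being the fit without WT uninduced replicate 1 (adjusted p = 0.0511). No other gene of the lists was called between the uninduced lines.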

How the data were processed

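The authors deposited raw counts per gene symbol for 12 libraries, with no normalization. The submitters' processing notes name hg19, STAR 2.4, HTSeq 0.6.1 and DESeq2 without roles; which annotation and strand setting served is not given in the sources used here. The library kit was TruSeq RNA, per the labels. The header joins its last column names by a space, so columns were matched by order within the header and by name to the sample descriptions; those of S222A read MEF2Cun and MEF2Cind, so these groups rest on the match with the titles.

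Genes passing filterByExpr (minimum count 10; 11474 genes, 99.47% of counts) were tested in edgeR 4.0.16 (R 4.3.3) by robust quasi-likelihood F tests with TMM factors and 1 mean per group (8 residual degrees of freedom), with Benjamini-Hochberg adjustment over all genes and calls at 0.05. The steps were tested on data simulated for S222A induced against uninduced cells. Of 10 members changed 1.5-fold 0 were called in the right direction, against 7 of 10 at 2-fold and 9 of 10 at 4-fold. Over all changed genes the shares were 2%, 36% and 86%. A missing call therefore does not exclude a moderate change. Alternatives used DESeq2 1.42.0, limma 3.58.1, other scalings and filters, and left-out libraries. SE was taken from the log2 fold change and the F statistic. CPM uses TMM factors. The floor of 3 counts is 0.228 to 3.43 CPM by library and covers counting error only. Library pairs within groups differed beyond sampling noise (chi-square per degree of freedom 2.64 to 35.2 over 12 pairs). Coding lengths are from the principal transcripts of GENCODE on GRCh38, and promoters from RefSeq.

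The members and lists were chosen with earlier results of these data known. Values are given for members with the smallest p in each comparison, those at both ends of the fold change on induction and of the level, and 12 chosen for their known roles; in the other lists called genes, or those with the smallest adjusted p, are named. RPL26, RPL39, RPS29, RPS25 and the other members of the depth comparison were chosen after their values were seen. The values of 4 members are not reported here and are left out of the plots; they stay in the fits, counts and shares.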

Additional observations from a re-analysis of the deposited data

How the results depend on the processing

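No member was called in any comparison when single libraries were left out, nor with size factors of DESeq2, upper quartile factors, factors without the members, scaling to the summed members or limma-voom. With a term for the deepest library of each group 2 members were called on S222A induction, 5 between the induced and 2 between the uninduced lines. Without those libraries the counts were 1, 4 and 0, without the low-count filter 1, 1 and 0, and DESeq2's test called 1 between the induced lines. Over all genes on S222A induction the term called 2053, DESeq2 811 and fits with single libraries left out 187 to 582. The cause was not tested. The medians of the members moved by less than 0.229, the spread between replicates on the log2 scale. With 1 library left out they changed sign on WT induction (-0.1 to 0.089) and between the induced lines (-0.169 to 0.0409). Scaling to the summed members turned the median negative on S222A induction (-0.0205) and on WT induction (-0.0212). Leaving out the deepest libraries also turned it negative on WT induction (-0.0403). Scaling to the members shifted the median of all genes by up to -0.11. It gave 328 called genes in place of 511 on S222A induction. Without mitochondrially encoded counts the members' share was 15.1% in S222A induced and 13.7% in S222A uninduced libraries. The log2 fold change took both signs over the 22 alternatives in 45 of 75 members on S222A induction, 63 on WT induction, 46 in the difference, 41 between the induced and 30 between the uninduced lines. Members at the ends of the order on induction that did so with single libraries left out are given here. On S222A induction this was RPS26 (-0.503 to 0.0235 over left-out libraries, positive without S222A induced replicate 3). On WT induction RPS3A did so (-0.606 to 0.0269, with 0.00568 without WT uninduced replicate 3 and 0.0269 without WT induced replicate 1). RPS12 did so on WT induction too (-0.164 to 0.547, negative without WT induced replicate 1). In WT cells RPS3A averaged 23.52 CPM induced and 28.29 CPM uninduced. RPS12 averaged 3451 CPM in WT induced and 2943 CPM in WT uninduced cells. With the replicate number as a block 0 members and 235 genes were called on S222A induction (511 without it), and 0 members with 350 genes between the induced (727) and 22 between the uninduced lines (45). Of 18 same-numbered pairs of libraries 6 deviated together with r over 0.1 (range -0.531 to 0.638). The highest r joined S222A uninduced replicate 1 and WT induced replicate 1, each the deepest library of its group. Depth enters these values, so they cannot show whether libraries of the same number share a batch. RPL17, which did not pass the filter, RPS26 and RPL21 had few counts even in the deepest library, S222A induced replicate 3 (18, 34 and 96). The reason for their low counts was not tested.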
